A study of Mus musculus with 9 samples.

Results

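The genes described here are 40 members of the mitogen-activated protein kinase (MAPK) cascades and their inhibitors, taken by symbol from 56289 gene identifiers. They comprise 9 MAPK, 7 MAP2K, 6 MAP3K, 3 MAPK-activated kinases (MAPKAPK), 10 dual-specificity phosphatases (DUSP), 3 Sprouty and 2 Spred genes. All 40 were found, and 38 reached the level needed for a test, an FPKM (fragments per kilobase and M, or mega, fragments, a unit scaled by gene length and depth) of at least 1 in at least 3 of 9 libraries. These 38 were at or above 1 FPKM in all 9 libraries. Mapk13 and Spry4 were not tested. Poly-A RNA was sequenced in libraries labelled RAW264.7, a macrophage-like line from BALB/c mice, in 3 groups of 3: TNF plus WBG (24 h of tumour necrosis factor alpha with Wang Bi granules, a herbal preparation), TNF (tumour necrosis factor alpha alone, 24 h) and untreated. No genetic change is labelled in any group. The labels give no dose of either agent and no time for untreated cells, so TNF and time in culture cannot be told apart. They also do not say that replicates were separate cultures, and a p-value here covers spread among these samples, which may be technical.

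MAPK cascades are relays of protein kinases in which a MAP3K phosphorylates a MAP2K, which phosphorylates a MAPK. The ERK branch answers mainly growth factors, and the JNK and p38 branches answer stress and cytokines such as TNF. DUSP phosphatases remove the activating phosphates from MAPKs, and Sprouty and Spred proteins restrain signalling from Ras to ERK. Transcription of several of these inhibitors is itself induced by MAPK activity, which makes their RNA a feedback arm. RNA levels do not report phosphorylation, the form in which these kinases are switched on.

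The defining markers went against the labelled cell type. Of 12 macrophage markers, Ptprc, Itgam, Adgre1 and Tyrobp were listed at 0 in all libraries, and 2, Cd14 and Cd68, averaged at least 1 FPKM. Of 12 fibroblast markers 9 averaged at least 1 FPKM, with Col1a1 between 791 and 1021 FPKM, while Lum was listed at 0 in all libraries and Thy1 and Fap stayed under 0.09 FPKM. The summed macrophage markers lay between 7.78 and 10.2 FPKM with TNF plus WBG, 6.89 and 7.88 FPKM with TNF, and 5.87 and 7.23 FPKM in untreated libraries, and Cd14, at 4.30 to 7.61 FPKM, was the larger part. The summed fibroblast markers lay between 3309 and 3568 FPKM, 3413 and 3500 FPKM, and 3271 and 3585 FPKM in these groups. These sums cover single markers that moved in opposite directions with TNF. Col1a1 and Col1a2 rose (log2 0.28 and 0.27, adjusted p = 0.00912 and 0.00587), and Postn, Pdgfrb and Vim fell (log2 -0.59, -0.51 and -0.28, adjusted p = 1.31e-05, 6.62e-05 and 0.0423). Between TNF plus WBG and untreated, 1 of 2 macrophage markers tested rose and 2 of 9 fibroblast markers tested fell. Between TNF plus WBG and TNF no marker of either list passed (limma). Marker genes of T, B and dendritic cells and of epithelium and endothelium all averaged under 1 FPKM. The part of these differences in the results below was not tested. In bulk RNA, fewer cells of a type and less RNA per cell cannot be told apart.

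The cascade kinases were present at widely different levels, and ERK-branch genes headed the order. Mapk3, which encodes ERK1, averaged 103 FPKM over the 9 libraries, and the MAP2K genes that activate ERK, Map2k2 and Map2k1, averaged 77.6 and 57.2 FPKM. They were followed by the JNK gene Mapk9 at 46.0 FPKM, the p38-activated kinase gene Mapkapk2 at 37.2 FPKM, Spred2 at 35.4 FPKM and the ERK phosphatase gene Dusp6 at 32.9 FPKM. Spred2, Dusp6 and Mapkapk2 overlap in their single-library values and have no clear order among themselves. At the low end, Dusp8, Dusp5 and Dusp2 averaged 2.04, 2.51 and 1.96 FPKM, Spry4 was between 0.26 and 0.41 FPKM, and Mapk13 (p38 delta) was listed at 0 in 7 libraries and reached at most 0.03 FPKM. Of the 38 genes tested, 24 averaged at least 10 FPKM. FPKM is a value per gene length, so levels are set side by side between genes. The order is approximate, because the counting program is not known and exons of 9 members overlap another gene.

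**Figure D1:**
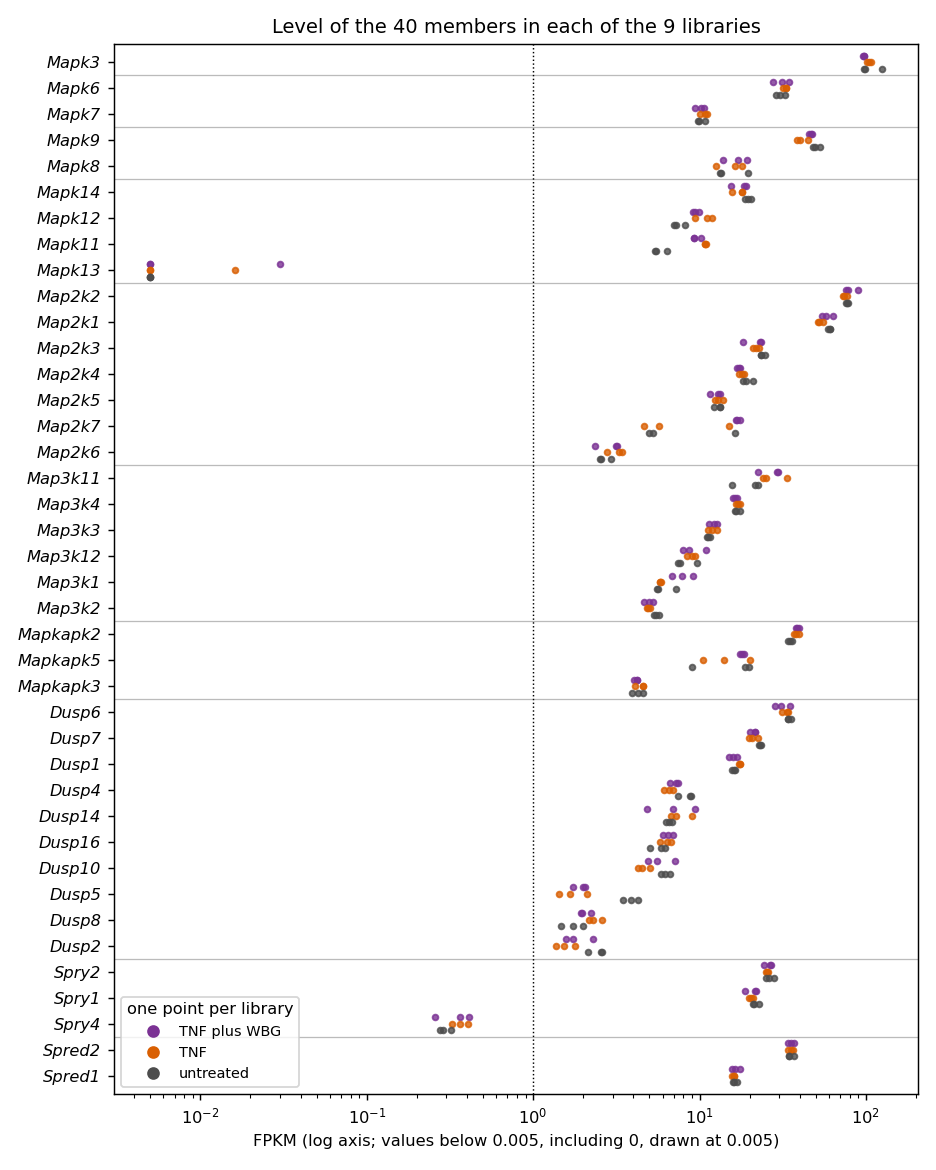
FPKM of each of the 40 genes (rows, grouped by family) on a log axis, 1 point per library, with TNF plus WBG above TNF above untreated in each row. In most rows the 9 points cluster tightly, while Mapk11, Mapk12 and Dusp5 show untreated points set apart from the others, Map2k7 splits into a low and a high cluster, and Mapk13 and Spry4 lie left of the dotted line at 1 FPKM.

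Most of these genes varied little. The coefficient of variation over all 9 libraries had a median of 8.71% over the 38 genes, against 10.1% over all 13026 genes tested. It was under 10% for 23 of the 38 (60.5%), against 49.6% of all genes. The median level was also higher in the 38, at 16.2 FPKM against 10.3 FPKM. The part of level in the lower variation was not tested. Spred2, Map3k4 and Spred1 were the steadiest, at 3.43%, 3.43% and 3.59%. The widest variation among the genes tested was that of Map2k7 (52.5%), Dusp5 (42.4%), Mapk11 (26.7%) and Mapkapk5 (25.2%). The exons of Map2k7 and Mapkapk5 overlap other annotated genes on the same strand, as described below.

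Between TNF and untreated libraries, 2 p38 genes rose and 1 JNK gene and 3 phosphatase genes fell. Mapk11 and Mapk12 rose, Mapk9, Dusp5, Dusp4 and Dusp2 fell, and 32 of the 38 genes did not pass (limma, adjusted p under 0.05 over all genes). The 2 rises are 5.26% of the 38, against 6.43% of all genes tested, and the 4 falls are 10.5%, against 4.21% of all genes (10.6% in either direction). Among the 38, leaving out untreated replicate 1, TNF replicate 1 or replicate 1 of TNF plus WBG left 2 falls, and leaving out untreated replicate 3 or either TNF replicate 2 or 3 left 1. Over all genes the falls numbered 549, which became 353, 356 and 359 when the same last 3 libraries were left out in turn. The 3 TNF libraries lay above all 3 untreated ones for 6 of the 38 genes (15.8%, against 15.5% of all genes) and below them for 10 (26.3%, against 14.4%). The median log2 fold change was -0.02 over the 38 genes and 0.00 over all genes, and the median absolute change was 0.11 for both.

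Between TNF plus WBG and TNF libraries no gene of the 38 passed in either direction (limma), where 0.0691% of all genes rose and 0.0307% fell, together 0.0998%. At an unadjusted p under 0.05, 7 of the 38 were reached (18.4%), against 9.06% of all genes. These were Map3k1, Map2k7, Mapk9, Dusp10 and Map2k1 on the higher side and Dusp1 and Mapk11 on the lower side, with adjusted p between 0.4296 and 0.550. The TNF plus WBG libraries lay above all TNF ones for 3 of the 38 (7.89%, against 7.03% of all genes) and below them for 3 (7.89%, against 7.72%). Map2k7 counts among the 7 and among the 3 above, and its TNF values split along with an overlapping gene model, as described below. Between TNF plus WBG and untreated libraries, Mapk11 rose and Dusp5 fell. That is 2.63% of the 38 in each direction, against 5.52% rises and 3.67% falls over all genes, together 9.19%. The TNF plus WBG libraries lay above all untreated ones for 4 of the 38 (10.5%, against 14.5% of all genes) and below them for 7 (18.4%, against 13.6%). The rises numbered 3 without untreated replicate 2, when Map2k7 (adjusted p = 0.0490) and Map3k1 (0.0450) were added, and 2 without TNF replicate 1, when Mapk12 was added (0.0335). Untreated replicate 2 was the only untreated library with Map2k7 high, at 16.4 FPKM against 4.96 and 5.28 FPKM. Both comparisons with the untreated group share its 3 libraries, and both comparisons with TNF share those of the TNF group.

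**Figure D2:**
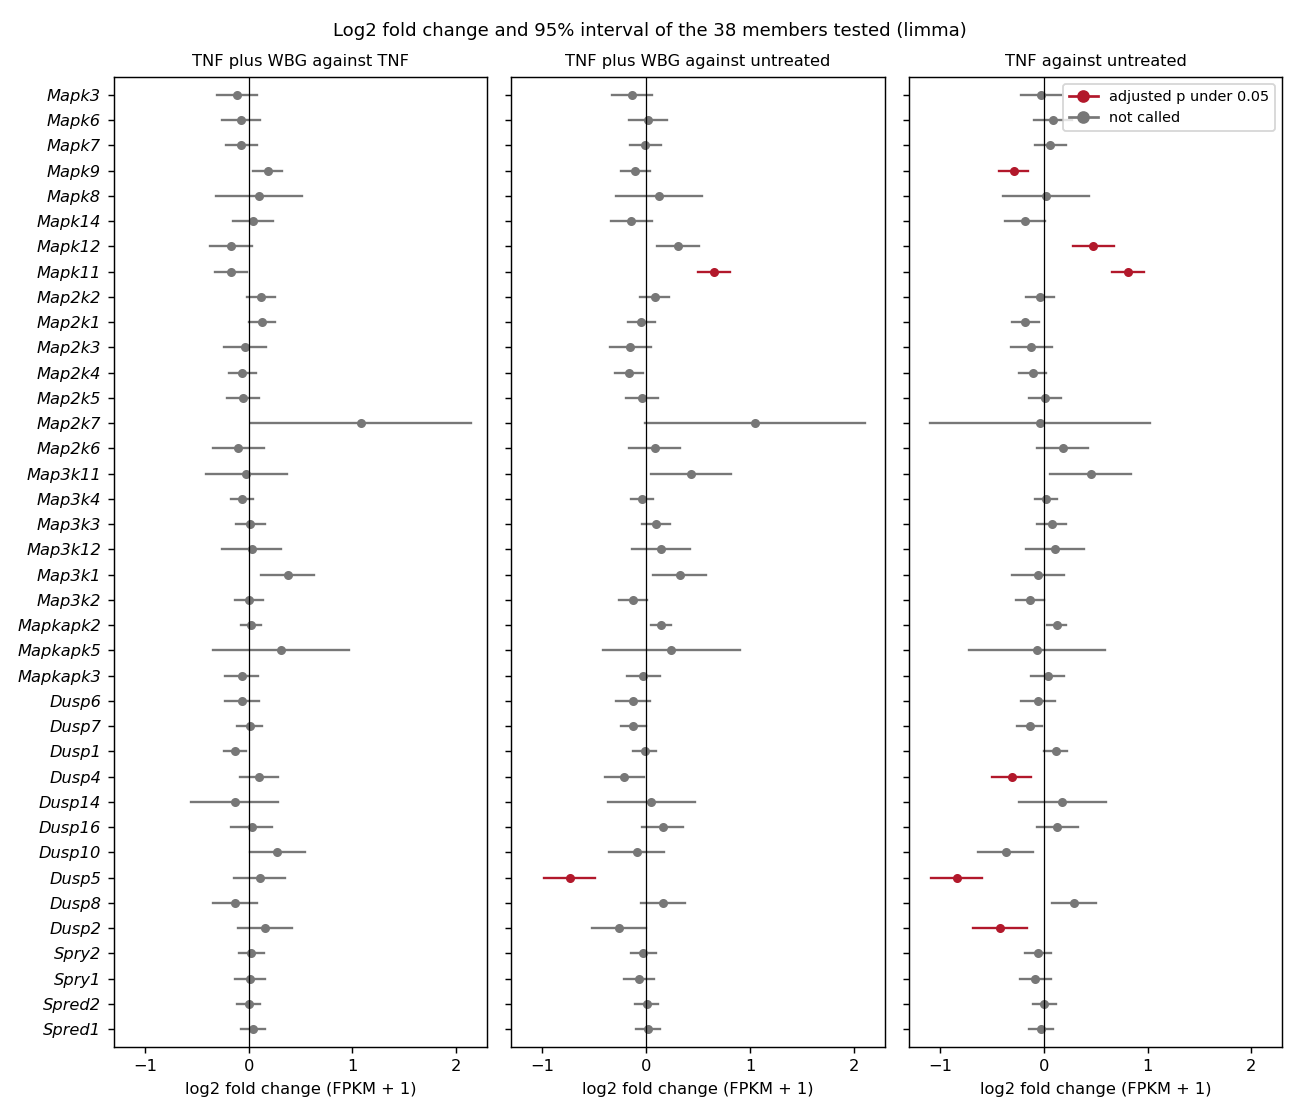
Log2 fold change of FPKM plus 1 (points) with its 95% interval from the limma fit (lines) for the 38 genes tested, in 3 comparisons; red marks an adjusted p under 0.05. No point is red for TNF plus WBG against TNF, 2 are red for TNF plus WBG against untreated and 6 for TNF against untreated, and Map2k7 and Mapkapk5 have the widest intervals.

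The 2 rises with TNF were both in the p38 family. Mapk11 (ENSMUSG00000053137) encodes p38 beta, a stress-activated kinase that phosphorylates MAPKAPK2 and transcription factors. Its level was 11.0, 10.8 and 10.8 FPKM in TNF libraries, against 5.50, 6.35 and 5.37 FPKM in untreated libraries. The groups stood far apart, and the TNF libraries were nearly equal. The ratio of means was 1.89, with a log2 fold change of 0.82 ± 0.07 (SE) and an adjusted p of 9.02e-05. With WBG added the level was 9.24, 10.2 and 9.27 FPKM, which lies below all 3 TNF libraries and above all 3 untreated ones. Against TNF the log2 difference was -0.17 (95% interval -0.32 to -0.01, adjusted p = 0.529), and against untreated it was 0.65 ± 0.07 (adjusted p = 0.000418). Both calls were kept under all 18 alternative settings.

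Mapk12 (ENSMUSG00000022610) encodes p38 gamma, known best from skeletal muscle. It had 9.42, 11.1 and 11.9 FPKM with TNF, against 7.01, 8.16 and 7.18 FPKM untreated. All TNF libraries lay above all untreated ones. The ratio was 1.45 and the log2 fold change 0.48 ± 0.09 (adjusted p = 0.00885, kept under all 18 settings with values up to 0.0377). With TNF plus WBG it had 9.11, 9.34 and 9.88 FPKM, again above every untreated library. That difference did not pass (log2 0.31, adjusted p = 0.0660), and neither did TNF plus WBG against TNF (log2 -0.17, interval -0.37 to 0.03, adjusted p = 0.624).

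Mapk14 (ENSMUSG00000053436), p38 alpha, is the most widely expressed p38 and was the most abundant of the family here. It had 17.96, 15.64 and 17.99 FPKM with TNF, against 19.6, 18.8 and 20.4 FPKM untreated. Every TNF library lay below every untreated one, by an amount that did not pass (log2 -0.18, adjusted p = 0.241). TNF plus WBG libraries had 19.05, 15.48 and 18.62 FPKM and overlapped both groups.

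In the makeup of p38 transcripts the untreated libraries stood apart. Mapk11 and Mapk12 together made up 49.1, 55.8 and 50.7% of summed p38 FPKM with TNF plus WBG, 53.1, 58.4 and 55.7% with TNF, and 39.0, 43.6 and 38.1% in untreated libraries. No library with TNF, alone or with WBG, reached down to the untreated range. The summed p38 level was 36.7 ± 1.51 FPKM with TNF plus WBG, 38.8 ± 1.59 FPKM with TNF and 32.8 ± 0.60 FPKM untreated (SD, n = 3). These shares and sums describe the same values as the single genes and carry no test of their own.

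**Figure D3:**
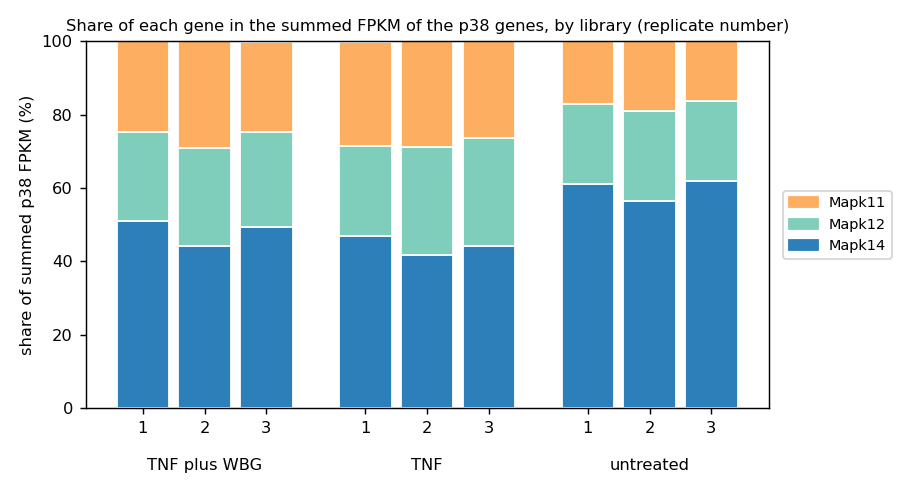
Share of Mapk11, Mapk12 and Mapk14 in the summed FPKM of the p38 genes (percent, vertical axis) in each library, by replicate number, with TNF plus WBG, TNF and untreated from left to right. The Mapk14 share averages 48.1%, 44.2% and 59.8% in that order; Mapk13, at most 0.08%, is too small to see.

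The p38 genes that rose are neighbours. In RefSeq (GRCm38.p6) Mapk11 and Mapk12 are adjacent protein-coding genes on chromosome 15, and Mapk13 and Mapk14 are adjacent on chromosome 17. The promoters of the chromosome 15 pair are shown because both transcripts rose with TNF, each from 250 bases before to 50 bases after the RefSeq start, read along the gene's own strand. Neither held a match to any of 5 motifs searched on both strands, so no letter is in capitals. The motifs were the kappa B site of NF-kB and the CArG box of serum response factor, each by its consensus. TGACGTCA stood for the cyclic AMP response element (CRE) and TATAAA for the core promoter box. The AP-1 site was searched as TGANTCA, with any base as N, which is looser than its consensus of C or G there.
Mapk11, GRCm38.p6, chr15:89149557-89149856, minus strand: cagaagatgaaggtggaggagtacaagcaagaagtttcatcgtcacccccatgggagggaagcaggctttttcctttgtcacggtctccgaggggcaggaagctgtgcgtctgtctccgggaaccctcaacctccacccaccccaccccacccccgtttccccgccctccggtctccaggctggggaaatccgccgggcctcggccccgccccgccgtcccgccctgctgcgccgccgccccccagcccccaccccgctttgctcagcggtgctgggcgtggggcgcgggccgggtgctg
Mapk12, GRCm38.p6, chr15:89140654-89140953, minus strand: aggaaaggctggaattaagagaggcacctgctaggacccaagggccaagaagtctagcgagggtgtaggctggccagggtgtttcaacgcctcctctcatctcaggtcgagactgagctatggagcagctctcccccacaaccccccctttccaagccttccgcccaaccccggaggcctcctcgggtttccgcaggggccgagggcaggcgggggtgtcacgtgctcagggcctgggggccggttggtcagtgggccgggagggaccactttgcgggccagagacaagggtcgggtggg
A motif match in such a window is a description and not a bound site. No match says only that these letters are absent from these 300 bases.

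The JNK kinases phosphorylate c-Jun and are activated by stress and cytokines. Mapk9 (ENSMUSG00000020366), JNK2, had 45.0, 39.9 and 38.4 FPKM with TNF, against 48.3, 49.7 and 52.9 FPKM untreated. All TNF values lay below all untreated ones, with a ratio of 0.817 and a log2 fold change of -0.29 ± 0.06 (adjusted p = 0.0184). The call was lost without untreated replicate 3, TNF replicate 2 or TNF replicate 3 (adjusted p = 0.0688, 0.0656 and 0.0623). TNF plus WBG libraries had 46.6, 47.7 and 45.6 FPKM, between the other groups and overlapping neither. Their log2 difference was 0.18 from TNF (interval 0.04 to 0.32, adjusted p = 0.483) and -0.11 from untreated (adjusted p = 0.358). Mapk8, JNK1, was lower and more variable, between 12.5 and 19.5 FPKM, and its groups overlapped in every comparison (adjusted p from 0.762 to 0.958).

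Mapk3, the most abundant member, had 97.8, 97.0 and 95.5 FPKM with TNF plus WBG, 101, 108 and 105 FPKM with TNF, and 99.4, 97.0 and 125 FPKM in untreated libraries. Untreated replicate 3 stood above the rest, and the groups TNF and untreated overlapped. The TNF plus WBG libraries lay just below all TNF ones (log2 -0.11, interval -0.30 to 0.08, adjusted p = 0.744). Mapk6 (ERK3, an atypical MAPK) had 34.7, 31.2 and 27.5 FPKM with TNF plus WBG, 33.2, 32.9 and 31.7 FPKM with TNF, and 28.7, 30.4 and 32.6 FPKM in untreated libraries. Its groups overlapped in all 3 comparisons, as did those of Mapk7 (ERK5), between 9.42 and 11.1 FPKM.

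Above the MAPKs, none of the 7 MAP2K genes and none of the 6 MAP3K genes passed in any comparison. Of all genes tested, 10.6% passed between TNF and untreated and 9.19% between TNF plus WBG and untreated. Between TNF plus WBG and TNF 0.0998% passed. With 7 and 6 genes, no call is near these shares. Map2k1 (MEK1) came nearest to a call with TNF, at 52.1, 55.6 and 51.8 FPKM, against 59.0, 61.0 and 60.5 FPKM untreated. The groups did not overlap, and the log2 difference of -0.18 had an adjusted p of 0.0893, which became 0.0400 without replicate 2 of TNF plus WBG and 0.0498 with only the 6 libraries compared. Map2k2 (MEK2) had 78.4, 75.9 and 89.8 FPKM with TNF plus WBG, 74.3, 72.5 and 77.3 FPKM with TNF, and 77.7, 76.9 and 75.5 FPKM in untreated libraries. Its groups overlapped, and 1 TNF plus WBG library stood above the rest. The kinase genes that feed p38, Map2k3 and Map2k6 (MKK3 and MKK6), had 21.9 ± 0.91 and 3.17 ± 0.33 FPKM with TNF and 23.9 ± 0.70 and 2.67 ± 0.24 FPKM untreated (SD, n = 3), with adjusted p of 0.461 and 0.355. Map2k4 (MKK4), which activates JNK and p38, had 17.9 ± 0.66 FPKM with TNF and 19.4 ± 1.43 FPKM untreated, and Map2k5, the activator of ERK5, had 13.1 ± 0.76 and 12.9 ± 0.60 FPKM in these groups (SD, n = 3).

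Of the MAP3K genes, Map3k1 (MEKK1), an activator of the JNK branch, had the smallest unadjusted p between TNF plus WBG and TNF. It had 7.82, 9.08 and 6.81 FPKM with TNF plus WBG, 5.86, 5.82 and 5.78 FPKM with TNF, and 5.56, 7.202 and 5.61 FPKM in untreated libraries. The TNF plus WBG values lay above all TNF values, but untreated replicate 2 reached into their range. The log2 difference from TNF was 0.38 (interval 0.12 to 0.63, unadjusted p = 0.00855, adjusted p = 0.4296). Map3k11 (MLK3), the most abundant MAP3K here, had 29.6, 29.2 and 22.5 FPKM with TNF plus WBG, 24.0, 33.6 and 25.2 FPKM with TNF, and 22.6, 15.7 and 21.5 FPKM in untreated libraries. The TNF libraries lay above all untreated ones without passing (log2 0.45, adjusted p = 0.146). Its exons overlap Pcnx3 on the opposite strand, which lay between 22.8 and 37.1 FPKM, and the sources used here do not say whether reads were counted by strand. Map3k4, Map3k3, Map3k12 and Map3k2 had log2 differences of at most 0.14 in size in all comparisons, with adjusted p of at least 0.216. Exons of Map3k12 also overlap other genes on the opposite strand.

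Map2k7 (MKK7), a JNK activator that responds to cytokines, had the largest log2 difference of the 38 genes between TNF plus WBG and TNF, with the widest interval. It had 17.5, 16.5 and 16.7 FPKM with TNF plus WBG, 5.71, 4.61 and 15.0 FPKM with TNF, and 4.96, 16.4 and 5.28 FPKM in untreated libraries. No library lay between 5.71 and 15.0 FPKM, and the split ran through both the TNF and the untreated group. Gm49320, a gene model whose exons overlap Map2k7 on the same strand, had 0.71, 1.015 and 0.13 FPKM with TNF plus WBG, 10.7, 9.84 and 0 FPKM with TNF, and 10.7, 0.38 and 10.2 FPKM in untreated libraries. It was high in the 4 libraries where Map2k7 was low and near 0 in the other 5. The 2 genes summed to between 14.5 and 18.2 FPKM in all 9 libraries, although FPKM of gene models of different length are not strictly additive. The log2 difference of Map2k7 was 1.09 between TNF plus WBG and TNF (interval 0.03 to 2.14, adjusted p = 0.548) and 1.05 between TNF plus WBG and untreated (adjusted p = 0.224). How the authors' program divided fragments between the overlapping models is not given in the sources used here.

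**Figure D4:**
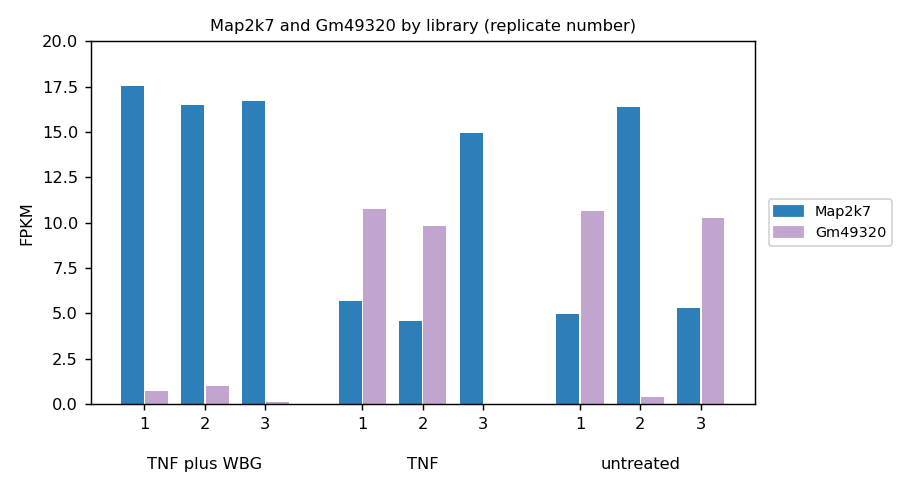
FPKM of Map2k7 and of the overlapping gene model Gm49320 (vertical axis) in each library, by replicate number, with TNF plus WBG, TNF and untreated from left to right. Where 1 gene is high the other is low, and all 3 TNF plus WBG libraries are on the high Map2k7 side.

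The MAPK-activated kinases act below p38 and ERK. Mapkapk2 (MK2), which stabilises cytokine RNAs downstream of p38, had 38.6, 39.5 and 37.99 FPKM with TNF plus WBG, 39.6, 36.9 and 37.8 FPKM with TNF, and 34.8, 36.1 and 33.8 FPKM in untreated libraries. All treated libraries lay above all untreated ones, by log2 differences of 0.15 (TNF plus WBG, adjusted p = 0.0689) and 0.12 (TNF, adjusted p = 0.109) that did not pass. Mapkapk3 held between 3.93 and 4.58 FPKM throughout. Mapkapk5, whose exons overlap Adam1a and Gm42878 on the same strand, ranged from 9.07 to 20.03 FPKM with overlapping groups in all 3 comparisons, and Adam1a and Gm42878 stayed at or below 2.29 FPKM.

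Of the 10 DUSP genes, Dusp5, Dusp4 and Dusp2 fell with TNF, where 4.21% of all genes fell. The calls of Dusp4 and Dusp2 depend on single libraries, as given below. The other 7 were not called, and the median log2 fold change of the 10 was -0.10. Dusp5, Dusp4 and Dusp2 all encode nuclear phosphatases whose transcription typically follows MAPK activation, as does Dusp1, which did not pass. Dusp5 (ENSMUSG00000034765), an ERK-selective phosphatase, had 2.10, 1.66 and 1.43 FPKM with TNF, against 3.88, 4.28 and 3.47 FPKM untreated. The groups were well separated, at a ratio of 0.447 and a log2 fold change of -0.84 ± 0.11 (adjusted p = 0.00133). With TNF plus WBG it had 1.99, 2.05 and 1.73 FPKM, inside the TNF range. The log2 difference was 0.10 from TNF (interval -0.14 to 0.35, adjusted p = 0.828) and -0.73 ± 0.11 from untreated (adjusted p = 0.00309). Both calls were kept under all 17 settings that tested the gene, while the log2 change against untreated with TNF ranged from -0.40 (pseudocount 5) to -1.13 (pseudocount 0.1). AC137853.2, which overlaps Dusp5 on the opposite strand, was at most 0.44 FPKM.

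Dusp4 (ENSMUSG00000031530), also known as MKP-2, had 6.97, 6.08 and 6.57 FPKM with TNF, against 8.92, 7.41 and 8.76 FPKM untreated. The groups did not overlap, and the log2 fold change was -0.31 ± 0.08 (adjusted p = 0.0430). Dusp2 (ENSMUSG00000027368), known from immune cells as PAC-1, had 1.37, 1.77 and 1.54 FPKM with TNF, against 2.57, 2.598 and 2.14 FPKM untreated, again without overlap (log2 -0.42 ± 0.11, adjusted p = 0.0487). Both calls lie close to the threshold. That of Dusp4 was lost with only the 6 libraries compared (adjusted p = 0.0814), with no filter (0.0934) and on leaving out any library except untreated replicate 2 (adjusted p from 0.0556 to 0.135). That of Dusp2 was lost with a pseudocount of 0.1 (adjusted p = 0.051), with median-ratio scaling (0.0501), with no filter (0.143) and on leaving out any library except replicates 2 and 3 of TNF plus WBG (adjusted p from 0.063 to 0.137). With a pseudocount of 5 the log2 change of Dusp2 was -0.18. With TNF plus WBG, Dusp4 had 6.66, 7.21 and 7.38 FPKM and Dusp2 had 1.74, 1.57 and 2.299 FPKM, and neither differed from untreated beyond the threshold (adjusted p = 0.162 and 0.210) or from TNF (0.761 and 0.729).

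**Figure D5:**
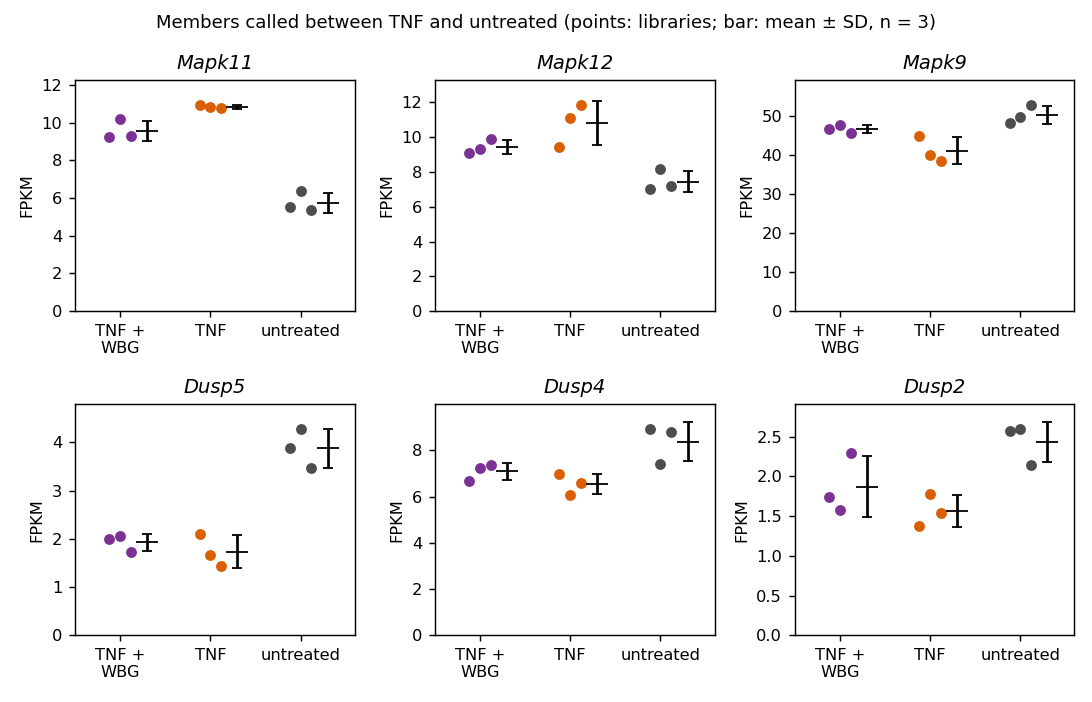
FPKM (vertical axes, from 0) of the 6 genes called between TNF and untreated, 1 point per library, with mean ± SD (n = 3) beside each group. For Mapk11 and Dusp5 the TNF plus WBG points lie nearer to TNF than to untreated, and for Mapk9 they lie between.

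Dusp1, the phosphatase of p38 and JNK known as MKP-1, had 16.7, 15.9 and 15.1 FPKM with TNF plus WBG, 17.3, 17.6 and 17.5 FPKM with TNF, and 15.7, 16.5 and 16.0 FPKM in untreated libraries. The TNF libraries lay above every library of both other groups, by differences that did not pass (log2 0.11 from untreated, adjusted p = 0.187; TNF plus WBG against TNF -0.13, adjusted p = 0.503). Its exons overlap Ergic1 on the opposite strand. The cytoplasmic ERK phosphatases were more abundant, with Dusp6 (MKP-3) between 28.4 and 35.2 FPKM and Dusp7 between 19.8 and 23.3 FPKM. Dusp7 was lower in every library with TNF than in every untreated one, by differences that did not pass (log2 -0.12 with TNF plus WBG and -0.14 with TNF, adjusted p = 0.203 and 0.155). Dusp6 had 31.003, 28.4 and 35.0 FPKM with TNF plus WBG, 31.2, 33.6 and 34.1 FPKM with TNF, and 33.8, 33.9 and 35.2 FPKM in untreated libraries, with overlapping groups. Of the phosphatases that act on JNK and p38, Dusp10 had 4.53, 5.02 and 4.26 FPKM with TNF, against 6.61, 6.20 and 5.88 FPKM untreated, and Dusp8 had 2.16, 2.58 and 2.3 FPKM with TNF, against 1.48, 1.99 and 1.74 FPKM untreated. Neither passed (log2 -0.37 and 0.29, adjusted p = 0.0864 and 0.0894), though in each the groups did not overlap, and Dusp10 had an adjusted p of 0.0256 without replicate 2 of TNF plus WBG and 0.0337 with only the 6 libraries compared. Exons of Dusp8 overlap Gm32786 on the opposite strand. Dusp16 ranged from 5.01 to 6.91 FPKM and the small atypical Dusp14 from 4.86 to 9.35 FPKM, with overlapping groups.

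The 3 phosphatase genes that fell were a minor part of the phosphatase transcripts. Dusp2, Dusp4 and Dusp5 together held 10.8 ± 0.36% of the summed DUSP level with TNF plus WBG, 9.65 ± 0.82% with TNF and 13.5 ± 0.64% in untreated libraries (SD, n = 3). The sum of all 10 was 101 ± 2.29 FPKM with TNF plus WBG, 102 ± 3.61 FPKM with TNF and 108 ± 0.73 FPKM untreated. These sums carry no test.

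The Dusp5 promoter is shown because this gene had the largest fall and is the only one of the 36 genes with a RefSeq window in which a CArG box was found. It holds 2 of them end to end, starting 82 and 72 bases before the start and set in capitals. A CArG box was found in 1 of the 46 windows of the 36 genes, and in 1.63% of the 32851 RefSeq windows of the same length.
Dusp5, GRCm38.p6, chr19:53528895-53529194, plus strand: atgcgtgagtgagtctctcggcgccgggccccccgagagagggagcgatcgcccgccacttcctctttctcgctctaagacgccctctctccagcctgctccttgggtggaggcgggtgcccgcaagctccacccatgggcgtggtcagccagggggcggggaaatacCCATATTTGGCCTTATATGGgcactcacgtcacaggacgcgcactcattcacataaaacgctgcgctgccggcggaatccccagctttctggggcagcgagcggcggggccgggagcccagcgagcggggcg
Windows were matched for 36 of the 40 genes, Dusp4 not among them. The CRE letters were found in Dusp1 and Dusp8 (1.79% of all windows) and a kappa B site in Mapk7 (8.46%). The AP-1 letters as searched were found in Map2k6 and Map2k7 (7.81%). Both of these matches read TGATTCA, which the AP-1 consensus leaves out. The letters TATAAA were found in Map2k6 and Map2k7 (13.6%), on the opposite strand, 206 and 72 bases before a RefSeq start. In Map2k6 they lie in another window than the AP-1 letters. The 36 genes have 46 windows, and each of these motifs was found in 2 of the 46. The 2 of Mapk7 overlap and hold the same site. Of the 5 called genes with a window, Mapk11, Mapk12, Mapk9, Dusp2 and Dusp5, none but Dusp5 held any of the 5 motifs.

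None of the 4 Sprouty and Spred genes tested passed, where 10.6% of all genes passed between TNF and untreated. With 4 genes, no call is near that share. Spry2 had 27.0, 24.5 and 26.4 FPKM with TNF plus WBG, 25.5, 25.7 and 25.1 FPKM with TNF, and 28.1, 26.3 and 25.1 FPKM in untreated libraries. Spry1 lay between 18.7 and 22.8 FPKM and Spred1 between 15.6 and 17.5 FPKM. Spred2 had 36.8, 34.1 and 35.6 FPKM with TNF plus WBG, 36.6, 34.2 and 35.6 FPKM with TNF, and 34.3, 34.6 and 37.2 FPKM in untreated libraries. The groups overlapped for all 4 genes in all 3 comparisons, and no log2 difference exceeded 0.08 in size. For Spred2 the log2 difference between TNF and untreated was 0.00, with an interval of -0.11 to 0.12.

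Other genes of the pathway were taken from 6 lists of 90 genes (further MAPK, MAP2K and MAP3K, MAP4K, Ras, Raf and adaptors, scaffolds, MAPK-activated kinases and phosphatases). These lists were chosen with earlier results of these data known. Of 70 tested, 8 rose with TNF (11.4%, against 6.43% of all genes) and 3 fell (4.29%, near the 4.21% of all genes). The rises numbered 4 without TNF replicate 1 and 5 without TNF replicate 2. The falls numbered 1 on leaving out any untreated library, TNF replicate 2 or 3 or replicate 2 of TNF plus WBG, and 2 on leaving out either replicate 1 that received TNF. Rras, a small GTPase related to Ras, had 37.2 FPKM with TNF and 21.7 FPKM untreated on average (log2 0.76 ± 0.11, adjusted p = 0.00247). Ksr1, a scaffold of the Raf to ERK relay, rose by a log2 of 0.51 ± 0.06 (adjusted p = 0.00101), and Mink1, a MAP4K, by 0.28 ± 0.05 (0.00570). Sos2, which loads Ras with GTP, fell by 0.52 on the log2 scale (adjusted p = 0.00450). Calls of these 4 genes were kept in each omission of a library. Map3k8 (Tpl2, the MAP3K that links TNF receptors to ERK) rose, with 2.50 FPKM with TNF and 1.29 FPKM untreated on average (ratio 1.93, adjusted p = 0.0244), and this was lost without TNF replicate 1 (0.0757) or TNF replicate 3 (0.0851). With a pseudocount of 5 the log2 change was 0.28 for Ksr1 and 0.25 for Map3k8.

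The other calls named here were smaller, and each was lost in 4 or more omissions. Rps6ka4 (MSK2), a kinase below p38 and ERK, had a log2 of 0.26 (adjusted p up to 0.0736 on leaving out replicate 1 or 2 of untreated or of TNF), and its exons overlap other models on the same strand. The scaffold Iqgap1 had 0.14 (up to 0.0748 on leaving out untreated replicate 3 or a TNF library), the MAP4K gene Map4k3 had -0.18 (up to 0.121 on leaving out any library but replicate 3 of TNF plus WBG), and the JNK scaffold Mapk8ip1 had -0.19 (up to 0.114 on leaving out an untreated library, TNF replicate 2 or 3 or replicate 2 of TNF plus WBG). Of the 70 genes none passed between TNF plus WBG and TNF (limma). An unadjusted p under 0.05 was reached by 4 of the 70, and by 9.06% of all genes. Between TNF plus WBG and untreated, 8 rose (11.4%, against 5.52% of all genes) and 1 fell (1.43%, against 3.67%). Those rises numbered 3 on leaving out replicate 1 of untreated or of TNF plus WBG and 5 on leaving out untreated replicate 2. The fall was lost on leaving out untreated replicate 3 or replicate 2 of TNF plus WBG.

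Genes whose transcription commonly follows ERK activity moved both ways with TNF. Of 11 tested, 5 rose (45.5%, against 6.43% of all genes) and 2 fell (18.2%, against 4.21%), and 3 rose without any 1 of the 9 libraries except TNF replicate 2, where 4 did. The list was chosen with earlier results of these data known, so these shares are a description and not a test. Inhibitors counted among the members are not in it. Of those inhibitors Dusp5, Dusp4 and Dusp2 fell with TNF, and the rest tested, Dusp6 and the Sprouty and Spred genes among them, did not pass. Ier3, an early response gene that is also an NF-kB target, had 31.8 FPKM with TNF and 19.1 FPKM untreated (log2 0.70 ± 0.13, adjusted p = 0.0106), and Ccnd1 (cyclin D1) had 121 FPKM with TNF and 84.9 FPKM untreated (0.51 ± 0.04, adjusted p = 3.01e-05). The transcription factor genes Egr1, at 4.66 FPKM with TNF and 7.41 FPKM untreated (-0.57 ± 0.08, adjusted p = 0.00223; -0.36 with a pseudocount of 5), and Etv4, at 7.28 FPKM with TNF and 11.0 FPKM untreated (-0.53 ± 0.08, adjusted p = 0.00249), fell. Between TNF plus WBG and TNF none of the 11 passed (limma). An unadjusted p under 0.05 was reached by 5 of the 11, and by 9.06% of all genes. The median log2 difference of the 11 was -0.09, with 8 of them below 0. Ccnd1 and Egr1 were lower in every TNF plus WBG library than in every TNF one (log2 -0.12 and -0.24, unadjusted p = 0.0100 and 0.0172, adjusted p = 0.449 and 0.488). Etv4 was higher in every one (log2 0.24, adjusted p = 0.473), and the groups of Fosl1 overlapped (log2 0.40, adjusted p = 0.508). Ier3 averaged 45.8 FPKM with TNF plus WBG, with all 3 libraries above all TNF ones (log2 0.49, interval 0.19 to 0.80, adjusted p = 0.411).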

How the data were processed

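RNA of 9 libraries was sequenced as poly-A paired-end libraries on an Illumina instrument, per the labels' protocols. The deposited table holds FPKM made by the authors, 1 value per Ensembl gene and library. Which aligner, counting program, annotation, build and strand setting were used is not given in the sources used here. FPKM sums per library ran from 427781 to 436809. Depth was inferred from single-exon genes, whose FPKM times GENCODE M21 exon length piled up on multiples of a step (23.6 to 25.9% lay within 0.02 of one, and an even spread gives 4%). If a step is 1 fragment, libraries hold 18.9 to 26.0 M (mega) fragments; no counts were derived, so no counting interval is given. Symbols were matched through GENCODE M21 (55144 of 56289 identifiers).

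Genes with FPKM of at least 1 in at least 3 libraries (13026) were fitted as log2(FPKM + 1) with limma 3.58.1 (R 4.3.3), trended spread, group as the only term and all 9 libraries in 1 fit. Log2 changes of low genes are understated by the pseudocount of 1. Tests were two-sided with Benjamini-Hochberg adjustment over all genes tested, and calls used an adjusted p under 0.05. Ratios are of mean FPKM; errors of log2 changes are standard errors and intervals are 95% intervals of the fit. Members, lists, motifs and tests were chosen with earlier results of these data known. Values per library are given for every member called and for the most abundant of each family, and other members follow by range or where they came near a call; of each list of other genes, up to 2 called per direction are named. Correlations of same-numbered libraries' deviations ran from -0.07 to 0.11, so replicate numbers were not treated as pairs. The fit was run on simulated data with normal noise of its own estimated spread. That checks its code and not whether the real data meet its assumptions. Promoters and gene order are from RefSeq (GRCm38.p6). Figures used python 3.11.15, pandas 2.3.3, numpy 2.4.6 and matplotlib 3.10.9.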

Additional observations from a re-analysis of the deposited data

How the results depend on the processing

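The alternatives were pseudocounts of 0.1 and 5, no filter, a filter on mean FPKM of 5, quantile normalization, median-ratio scaling, only the 6 libraries compared, no trend, a replicate block and leaving out single libraries. No fold change of a called member changed sign under them. For TNF against untreated, the rises among the members stayed at 2 throughout, and the falls numbered 2 with no filter, 2 with a mean FPKM of at least 5 (which leaves 33 members and removes Dusp2 and Dusp5) and 2 with the replicate block, against 4 as reported; over the omissions they ran from 1 to 5. The call of Dusp2 was also lost with a pseudocount of 0.1 and with median-ratio scaling, and that of Dusp4 with only the 6 libraries compared. With the replicate block Dusp4 (adjusted p = 0.0599) and Dusp2 (0.101) were not called; the numbers pair no samples by the labels. For TNF plus WBG against untreated, the falls numbered 0 with a mean FPKM of at least 5, which removes Dusp5, and the rises ran from 1 to 3 over the omissions. Over all genes, the falls for TNF against untreated ran from 353 to 515 over the omissions. For TNF plus WBG against TNF, 4 genes fell as reported, 1 with only the 6 libraries compared, 2 with the replicate block, and 1 to 5 over the omissions; no member was called under any setting. The cause of these shifts was not tested, except where a filter removed the gene. No counts were derived, so what depth limits for single genes was not measured.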
